A study of Mus musculus with 15 samples.

Results

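The genes described here encode the proteins of the mitochondrial ribosome, and comprise every mouse gene on the array whose symbol begins with Mrpl or Mrps and a number. They were found through the accession printed for each probe, which gave 78 genes of the 21154 with a symbol on the array, 49 of the large subunit (Mrpl) and 29 of the small subunit (Mrps) by name. These are all 78 protein-coding genes of that name in the RefSeq table used. Their 100 probes were reduced to 1 probe a gene, the one with the highest mean signal over the 15 arrays, since 22 genes had more than 1 probe.

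RNA came from the femoral midshaft of male C57BL/6J mice, and each array compared 1 animal's RNA in the red dye (Cy5) with a commercial reference pooled from mouse cell lines in the green dye (Cy3). The labels give an age of 9 weeks, while by the study's methods the mice were older when the tissue was taken, after the flight. G-Sham (4 arrays) and FLT-Sham (4 arrays) were labelled as unoperated controls, which the study's methods call Sham surgery, kept on the ground or aboard the International Space Station. G-Surgery (4 arrays) and FLT-Surgery (3 arrays) had a segment of the femur removed and replaced by a synthetic graft wrapped in a saline-soaked collagen sponge shortly before launch, and then stayed on the ground or flew. All groups are labelled as callus, although the Sham samples were the matching stretch of an intact femur, and the carcasses of all groups were stored frozen before dissection. The Surgery and Sham groups therefore differed in tissue as well as in operation, and groups were assigned by cage. The study asked how spaceflight acts on the bone with and without a defect.

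Mitochondria keep their own ribosomes, which translate the few proteins encoded by mitochondrial DNA, all of them core subunits of the respiratory chain and of ATP synthase. The large subunit joins amino acids and the small subunit reads the messenger, and every mitochondrial ribosomal protein is made from a nuclear gene and imported. Tissues rich in mitochondria such as skeletal muscle, heart and brown fat depend heavily on this machinery, and bone cells need it for the switch to oxidative metabolism during differentiation.

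The promoters of 69 of the 78 genes were present in the RefSeq promoter table (build GRCm38.p6, 250 bases before to 50 after each start), with 75 promoters in all against 32851 for all genes. They were searched on both strands for 5 short motifs of factors known to act on nuclear genes of mitochondria or on housekeeping genes. GCGCATGCG, the core of the NRF1 site, was in 7 of 75 member promoters (9.33%) and in 1.75% of all promoters. CCGGAAGT, the ETS site bound by GABP (NRF2), was in 12 (16.0%) against 3.89%, and AAGATGGCG, the YY1 site, was in 8 against 1.40%. CCAAT was in 30 (40.0%) against 37.4% and the E-box CACGTG in 7 (9.33%) against 7.15%. The first 3 motifs were thus several times as frequent as among all promoters, and the last 2 were at about the general frequency. The member promoters also had a median GC content of 58.7%, above the 52.7% of all promoters, and no account was taken of this. A match describes letters and not binding. Stretches of 100 bases ending at the start site are shown for Mrpl3 and Mrpl36, which fell in one comparison below, for Mrpl32, which held the NRF1 core at 2 places, and for Mrps10, which differed in direction from most members.
Mrpl3 promoter, chr9:105053168-105053267, + strand: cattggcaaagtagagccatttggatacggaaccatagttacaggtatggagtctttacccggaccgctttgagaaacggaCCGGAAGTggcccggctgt
Mrpl36 promoter, chr13:73330909-73331008, + strand: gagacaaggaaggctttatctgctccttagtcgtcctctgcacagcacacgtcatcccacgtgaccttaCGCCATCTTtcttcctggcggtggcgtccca
Mrpl32 promoter, chr13:14613038-14613137, - strand: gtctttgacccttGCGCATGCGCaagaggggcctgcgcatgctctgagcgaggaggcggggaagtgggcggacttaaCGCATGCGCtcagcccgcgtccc
Mrps10 promoter, chr17:47369097-47369196, + strand: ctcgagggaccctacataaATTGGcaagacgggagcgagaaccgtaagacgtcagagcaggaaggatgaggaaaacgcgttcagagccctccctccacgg
Capitals mark the ETS site of Mrpl3 (19 bases before the start), the YY1 site of Mrpl36 (31 bases before), the NRF1 cores of Mrpl32 (the first 87 bases before, read on both strands and so overlapping itself) and the CCAAT box of Mrps10 on the opposite strand (81 bases before).

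On these arrays the signal was well above background in Cy5 for 22.4% to 38.5% of probes, and no pair of arrays correlated below 0.555 over all probes. Of the 78 members, 41 were above background on all 15 arrays. Mrpl1, Mrpl21 and Mrpl35 were above it on none, so that their ratios have no usable level, and Mrpl19 and Mrps5 on 2. All values below are log2 ratios of bone RNA to the reference, so that 0 is the level of the cell line pool and 1 is a doubling. A ratio compares 1 gene between arrays and does not rank genes by amount. The study describes its bone RNA as sub-optimal in quality, and as comparable in quality between flight and ground. The part of RNA quality in the ratios to the reference was not tested. In whole bone, fewer cells of a type and less RNA per cell cannot be told apart.

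Most members were below the cell line reference in bone. By group mean, 61 of 78 were below it in G-Sham, 54 in FLT-Sham, 63 in G-Surgery and 64 in FLT-Surgery. The array medians over the 78 genes were −1.68, −0.65, −0.80 and −0.58 in G-Sham (replicates 1, 3, 4 and 5) and −0.29, −0.15, −1.20 and −0.47 in FLT-Sham (replicates 4, 6, 8 and 9). They were −1.26, −1.11, −1.06 and −1.11 in G-Surgery (replicates 1, 3, 4 and 5) and −1.12, −1.68 and −2.35 in FLT-Surgery (replicates 1, 3 and 5). The other 3 FLT-Sham arrays were thus the highest of all 15 and FLT-Surgery replicate 5 the lowest, while FLT-Sham replicate 8 lay with the Surgery arrays and G-Sham replicate 1 lay with FLT-Surgery. The 4 G-Surgery arrays were the most alike.

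**Figure D1:**
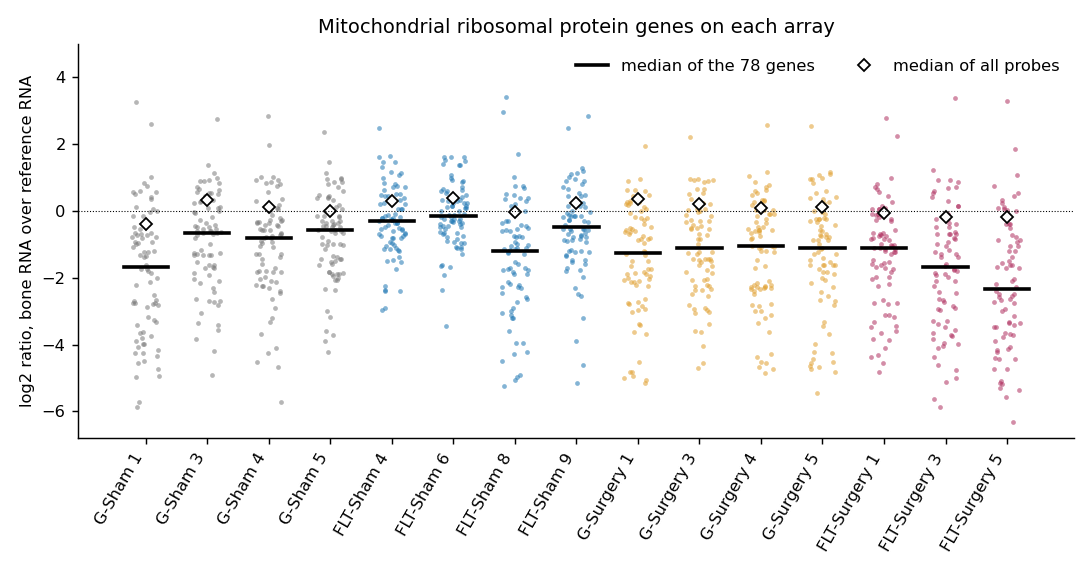
Each point is the log2 ratio of 1 of the 78 genes to the reference RNA on 1 array (x axis, arrays by group and replicate number, coloured by group), the bars are the medians of the 78 genes and the diamonds the medians of all probes. The bars run from −0.15 in FLT-Sham replicate 6 to −2.35 in FLT-Surgery replicate 5, while the diamonds move far less.

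Signals of skeletal muscle genes moved with the member medians. The summed Cy5 signal of 17 muscle genes was, in scanner units divided by 1000, 893 to 4354 in G-Sham, 1382 to 12979 in FLT-Sham, 697 to 3366 in G-Surgery and 248 to 2479 in FLT-Surgery. The lowest muscle sum of each group fell on G-Sham replicate 1, FLT-Sham replicate 8, G-Surgery replicate 1 and FLT-Surgery replicate 3 (248, with 315 on replicate 5), which in the first 3 groups was also the array with the lowest member median. All 17 muscle genes were above background on at least 1 array. On the same scale, summed signals of 7 erythroid genes on the array were 17.4 to 52.2 in G-Sham, 45.3 to 242 in FLT-Sham, 2.24 to 36.8 in G-Surgery and 2.82 to 28.0 in FLT-Surgery. The 7 adipocyte genes had 9.54 to 52.2 in FLT-Sham, 1.81 to 9.66 in G-Surgery and 0.242 to 7.36 in FLT-Surgery, and in G-Sham they began at 0.568 and reached into the FLT-Sham range. The 8 neutrophil genes had up to 203 in G-Sham, 146 to 390 in FLT-Sham, 52.0 to 139 in G-Surgery and 13.9 to 108 in FLT-Surgery. The 12 osteoblast and osteocyte genes, the labelled tissue, varied less, with 177 to 411 in G-Sham, 297 to 510 in FLT-Sham, 266 to 565 in G-Surgery and 200 to 333 in FLT-Surgery, although Sp7, Dmp1, Sost and Phex of that list were above background on no array. Other lists had other orders. The 6 endothelial genes had sums of 5.54 to 15.9 in G-Sham, up to 16.7 in FLT-Sham, 12.4 to 25.4 in G-Surgery and 17.3 to 57.6 in FLT-Surgery. Only FLT-Surgery replicate 5 lay above the G-Surgery range. By median log2 ratio these genes were lowest in FLT-Surgery, at 0.30 against 0.71, 1.87 and 1.40 in G-Sham, FLT-Sham and G-Surgery. The 7 chondrocyte genes had 1.91 to 22.04 in G-Surgery, against 0.685 to 1.03, 0.936 to 6.75 and 0.777 to 1.14 in G-Sham, FLT-Sham and FLT-Surgery. The part of these cell types in the values of the members was not tested.

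The members did not vary alike (Mrpl49, Mrps11, Mrpl50, Mrpl2, Mrps7 and Mrps36 are named here after their values were seen). The range of the 4 group means was under 0.5 for 15 genes, from Mrpl49 (0.09) to Mrps11 (0.45), and over 2 for 16 genes, up to Mrpl50 (3.55) and Mrpl44 (3.70). For Mrpl50 and Mrpl44 the lowest mean was that of FLT-Surgery, with no array above background, so that these ranges are not exact. Of the 15 steady genes, 14 were above background on every array, and the median range was 0.78 among the 41 genes of that kind and 1.69 among the other 37. Mrpl2, a central protein of the large subunit, held at 0.47 ± 0.11 in G-Sham, 0.47 ± 0.21 in FLT-Sham, 0.43 ± 0.15 in G-Surgery (SD, n = 4 each) and 0.17 ± 0.28 in FLT-Surgery (SD, n = 3). Mrps7, of the head of the small subunit, was similarly flat, at 0.12 ± 0.14, 0.29 ± 0.15, 0.19 ± 0.13 and 0.02 ± 0.30 in the same order. Mrpl58, an active peptidyl-tRNA hydrolase that frees stalled ribosomes, was steady as well, at 0.99 ± 0.32, 0.77 ± 0.17, 0.99 ± 0.09 and 0.82 ± 0.40.

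Proteins of the large subunit stalk, where translation factors dock, gave mixed levels. Mrpl12, which carries this role and also binds the mitochondrial RNA polymerase, was at −0.68 ± 0.42 in G-Sham, −0.36 ± 0.46 in FLT-Sham, −1.16 ± 0.14 in G-Surgery and −1.31 ± 0.31 in FLT-Surgery. Mrpl11 of the stalk base was at −0.28 ± 0.36, 0.02 ± 0.34, −0.10 ± 0.12 and −0.86 ± 0.18, and Mrpl10, which anchors Mrpl12, at −0.94 ± 0.28, −0.97 ± 0.19, −1.12 ± 0.78 and −0.76 ± 0.68. Mrpl11 and Mrpl12 were lowest in FLT-Surgery and Mrpl10 was not. Elsewhere in the large subunit, Mrpl13 was at −2.39 ± 1.08, −1.66 ± 0.84, −2.75 ± 0.35 and −3.32 ± 0.56, Mrpl41 at −0.86 ± 0.46, −0.17 ± 0.73, −0.64 ± 0.18 and −0.96 ± 0.47, and Mrpl45, which sits by the exit tunnel and ties the ribosome to the inner membrane, at −0.07 ± 0.52, 0.45 ± 0.51, 0.08 ± 0.15 and −0.82 ± 0.80. Each of these had its highest mean in FLT-Sham and its lowest in FLT-Surgery.

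The small subunit gave a similar picture. Mrps12, part of the decoding centre, was at −1.15 ± 0.54, −0.94 ± 0.59, −1.60 ± 0.13 and −1.72 ± 0.33, and Mrps16 at −0.73 ± 0.45, −0.21 ± 0.57, −0.80 ± 0.24 and −1.32 ± 0.28. Mrps34, which the small subunit needs for stability, was at 0.25 ± 0.15, 0.58 ± 0.33, 0.52 ± 0.20 and 0.02 ± 0.08. Mrps22 and Mrps35 were above background on 5 and 3 of 15 arrays, so that their means of −3.43, −1.99, −3.32 and −3.60, and of −4.27, −2.92, −4.76 and −4.46, say little beyond being brightest in FLT-Sham. Of the 3 paralogs of the bacterial S18 protein, Mrps18a, which lies in the large subunit despite its name, was at −0.84 ± 0.65, −0.64 ± 0.31, −1.29 ± 0.24 and −2.03 ± 0.73, Mrps18b at −0.48 ± 0.33, −0.18 ± 0.19, −0.59 ± 0.27 and −0.79 ± 0.36, and Mrps18c at −1.02 ± 0.62, −0.61 ± 0.39, −0.75 ± 0.20 and −1.85 ± 1.35. The 3 paralogs thus had the same extremes. Mrps36, better known as a subunit of the 2-oxoglutarate dehydrogenase complex than of the ribosome, was at −0.56 ± 0.56, −0.14 ± 0.23, −0.68 ± 0.13 and −1.21 ± 0.95.

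In unoperated mice, members were mostly higher in flight than on the ground, but none passed the cut-off, which asked of limma a change of 2-fold or more and a raw p no higher than 0.01. FLT-Sham was above G-Sham for 62 of the 73 members tested (probes above background on at least 3 arrays compared), with a median difference of 0.47 against 0.24 over all 19734 probes tested, of which 61.1% were higher. Of the 73, 3 were above background on no G-Sham array, passed the filter through FLT-Sham alone and were bound to be higher. Among the 41 members above background on all arrays, 32 were higher, with a median of 0.29. No member passed the cut-off, against 1.79% of all probes as higher and 0.208% as lower, and 1 was higher at an unadjusted p under 0.05, against 8.01%. No member separated the groups, against 4.60% of all probes. The smallest Benjamini-Hochberg adjusted p of a member was 0.511. The member share past each threshold was therefore below that of all probes, although the members leaned one way. The median was 0.22 with a further loess within arrays, 0.05 with normexp background correction and loess, and 0.17 after centring each array on its median, where the medians of all probes were −0.13, −0.08 and −0.05. Within slides, taken as batches, it was 0.57 on slide 1, which held 1 array of each group, and 0.54 on slide 2, and slide 3 held G-Sham replicate 4 alone.

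The member with the largest fitted difference was Mrpl37, of the large subunit, with −1.52, −0.75, −2.99 and −1.46 in FLT-Sham and −4.24, −2.82, −4.10 and −2.07 in G-Sham. FLT-Sham was higher except for replicate 8, which lay within the range of G-Sham. The difference was 1.63 ± 0.64 (SE, adjusted p = 0.511 by limma). Since the gene was above background on no G-Sham array, the scanner signals give only that FLT-Sham was at least 1.98-fold higher. The same limit for Mrps35 was 2.05-fold, so that the rank of Mrpl37 is not established. Both limits take the FLT-Sham array that was below background as measured. FLT-Sham replicate 8 decided much of this comparison. Without it, 8 members passed the cut-off as higher, 38 separated the groups and the median was 0.71, with 10.6% of all probes past the cut-off. With weights that lower the influence of divergent arrays, 14 passed, against 19.5% of all probes.

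In mice with a bone defect the members leaned the other way. FLT-Surgery was below G-Surgery for 54 of the 62 members tested, with a median difference of −0.40 against −0.20 over all 16540 probes. No member passed the cut-off, against 3.14% of all probes. At an unadjusted p under 0.05, 8 members were lower, against 11.0% of all probes in that direction. In 11 members every FLT-Surgery array was below every G-Surgery array, against 7.54% of all probes, and 1 member lay wholly above, against 6.02%. The smallest adjusted p of a member was 0.28 by limma. Without FLT-Surgery replicate 1, 10 members passed (9 of them lower) and 28 lay wholly below, with 12.8% of all probes past the cut-off. With the slide as a block 5 passed and with array weights 6, where 7.80% and 10.3% of all probes did. Mrpl3 was above background on no FLT-Surgery array, and among the 41 members above background on all arrays 36 were lower. This lean did not survive every scaling, since the median was 0.00 with a further loess and 0.08 with normexp and loess, and −0.08 after centring, where the medians of all probes were 0.30, 0.01 and 0.12. Relative to all probes the members stayed lower with the further loess and with centring, and were higher with normexp. Within slides the median was −0.46 on slide 1 and −0.36 on slide 2.

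Mrps28, of the small subunit, had the largest difference among the 11, with −1.27, −2.46 and −2.75 in FLT-Surgery and −1.23, 0.01, −0.83 and −0.76 in G-Surgery. The highest flight array and the lowest ground array nearly met. The difference was −1.46 ± 0.45 (SE, adjusted p = 0.28). Mrps18c was at −1.15, −0.99 and −3.41 against −0.96, −0.54, −0.63 and −0.86, a difference of −1.10 ± 0.58 that was −0.32 without FLT-Surgery replicate 5. For Mrps18c the single array with −3.41 made most of the difference. Mrpl55, a large subunit protein found in animals, was at −0.66, −0.92 and −2.47 against −0.63, 0.18, −0.15 and −0.41, a difference of −1.10 ± 0.48 that was −0.53 without the same array. Mrpl45 was at −0.58, −0.17 and −1.72 against −0.06, 0.24, 0.18 and −0.03, a difference of −0.91 ± 0.39 that was −0.46 without it. Mrpl11 was at −0.84, −0.69 and −1.05 against −0.22, −0.04, 0.04 and −0.20. Its difference of −0.76 ± 0.24 was −0.67 to −0.84 with each array left out in turn, so that it rested on no single array.

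Mrps10, of the small subunit head, had the highest ratio to the reference of the 78 members (mean 2.58 over 15 arrays) and was the only one of the 62 with every FLT-Surgery array above every G-Surgery array. It was at 2.79, 3.38 and 3.29 in FLT-Surgery and 1.96, 2.22, 2.57 and 2.54 in G-Surgery, a difference of 0.83 ± 0.29 (SE, adjusted p = 0.28). In Sham it was at 1.32, 1.42, 3.42 and 2.49 in flight and 3.27, 2.76, 2.84 and 2.37 on the ground, where the groups overlapped. The difference there was −0.65 ± 0.51, so that Mrps10 was among the few members with the opposite sign in both comparisons. The Surgery difference was 1.05 with a further loess and 1.16 after centring, and past the cut-off in both.

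The spaceflight differences in Sham and in Surgery share no array and can be set side by side. Of 62 members tested in both, 47 were higher in FLT-Sham and lower in FLT-Surgery, 5 were higher in both, 7 lower in both and 3 the reverse (Mrps10 among them). Over these 62 genes, which share arrays, probes' brightness and RNA samples, the differences had a Spearman correlation of −0.47, given as a description. Members with a larger excess in FLT-Sham tended to have a larger deficit in FLT-Surgery.

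**Figure D2:**
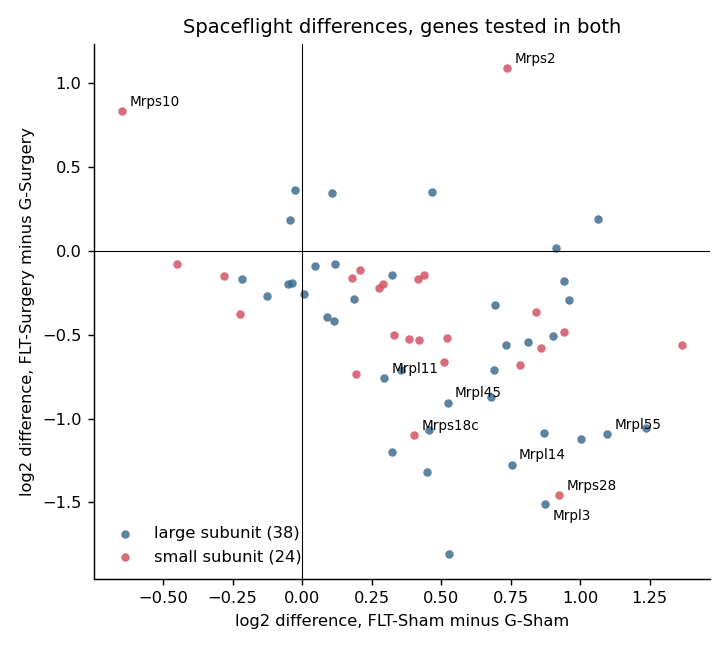
Each point is 1 of the 62 members tested in both comparisons, coloured by the subunit in its name. The x axis is the log2 difference between FLT-Sham and G-Sham and the y axis that between FLT-Surgery and G-Surgery. The lower right part holds 47 of the 62, and Mrps10 stands alone at the upper left end.

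On the ground the split of the members after surgery depended on the scaling. G-Surgery was above G-Sham for 29 of 65 members tested and below for 36, with a median difference of −0.11 against 0.14 over all 17674 probes. With the further loess 47 of 65 were lower, with normexp and loess 51, with centring 53 and with array weights 43. The median was −0.20, −0.13 and −0.33 with the first 3 of these, where all probes had −0.09, −0.03 and −0.08. It was −0.34 within slide 1 and 0.30 within slide 2, so that its sign differed between slides. It also turned to 0.05 without G-Sham replicate 3 and to 0.04 without replicate 5.

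Of the 65, 1 member passed the cut-off on the ground, against 0.509% of all probes as lower. Mrps2, of the small subunit, was at 0.07, −1.23, −1.19 and 1.16 in G-Surgery and 2.61, 0.89, 1.98 and 1.47 in G-Sham, and the groups overlapped by 1 array. It fell by 2.03 on the log2 scale, with a standard error of 0.60 and an adjusted p of 0.344 by limma. The other tested probe of Mrps2 differed by 0.67 in the opposite direction, so that the call holds for 1 probe and not for the gene. In FLT-Surgery the same probe spread from −1.73 to 2.26. Without G-Sham replicate 1, 4 or 5 or G-Surgery replicate 1, 3 or 4 it did not pass, and the difference then ranged from −1.72 to −2.16. Without G-Sham replicate 1, 3 members passed as lower, and 4.26% of all probes passed. Mrpl20, of the large subunit, was the 1 member with every G-Surgery array above every G-Sham array, against 5.31% of all probes, at −0.20, 0.22, −0.32 and −0.31 against −0.96, −0.49, −0.74 and −0.56, a difference of 0.54 ± 0.24.

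In flight, surgery and Sham were furthest apart, though not with normexp and loess, where the median was −0.08 in flight and −0.13 on the ground. FLT-Surgery was below FLT-Sham for 65 of the 72 members tested, with a median difference of −1.06 against −0.28 over all 19128 probes. Past the cut-off 6 members fell, Mrpl3, Mrpl36, Mrpl37, Mrpl44, Mrpl55 and Mrps30, that is 6 of 72 where 6.23% of all probes passed as lower. At an unadjusted p under 0.05, 28 were lower, against 20.5% of all probes, and 19 members lay wholly below, against 10.6%. Of the 72, 11 were above background on no FLT-Surgery array and had passed the filter through FLT-Sham alone, so that they were bound to be lower. Among the 41 members above background on all arrays, 35 were lower, with a median of −0.60. The median of all tested members was −0.50 with a further loess, −0.08 with normexp and loess and −0.57 after centring, where all probes had 0.36, 0.08 and 0.20, and within slides it was −1.57 on slide 1 and −0.57 on slide 2. The smallest adjusted p of a member was 0.0794.

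Mrpl44, an RNase III-like protein needed to assemble the large subunit, gave that smallest value. It was at −4.09, −4.77 and −4.73 in FLT-Surgery and −0.36, 0.15, −2.19 and −0.93 in FLT-Sham, with a wide gap between the groups. It was above background on no FLT-Surgery array and 3 FLT-Sham arrays, so that FLT-Sham was at least 6.17-fold higher by the scanner signals, against a fitted log2 difference of −3.70 ± 0.59. Mrpl3, which lies near the peptidyl transferase centre, was at −3.33, −4.04 and −4.15 against −0.51, −0.31, −3.06 and −0.70. The groups did not overlap, but FLT-Sham replicate 8 came close to the lowest group, and the fitted difference was −2.69 ± 0.71 (adjusted p = 0.144), at least 4.90-fold. Mrpl37 was at −3.85, −3.83 and −4.42 against −1.52, −0.75, −2.99 and −1.46, a fitted difference of −2.35 ± 0.56 (adjusted p = 0.136) and at least 2.29-fold. For these 3 genes the flight level after surgery was known only as a ceiling. The limits for Mrpl44 and Mrpl37 also take the FLT-Sham array that was below background as measured, so they are not strict.

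Mrpl55, above background everywhere, gave a measured fold. It was at −0.66, −0.92 and −2.47 in FLT-Surgery and 1.64, 1.62, −0.31 and 1.20 in FLT-Sham, and fell 5.22-fold (log2 difference −2.38 ± 0.65, adjusted p = 0.145 by limma). Mrpl36, a short protein of the large subunit, was at −1.74, −3.55 and −2.59 against −0.53, −0.13, −1.23 and −0.78, and was 3.88-fold lower (−1.96 ± 0.51, adjusted p = 0.144). Mrps30, which sits in the large subunit in mammals, was at −2.67, −3.28 and −2.92 against −1.14, −0.91, −2.21 and −1.30, with a fitted log2 difference of −1.57 ± 0.42 (adjusted p = 0.145). Mrpl36 was above background on 2 FLT-Surgery arrays and Mrps30 on 1, so that no fold is given for Mrps30. In each of these 3 genes the groups did not overlap, and FLT-Sham replicate 8 was the FLT-Sham array nearest to FLT-Surgery. With normexp and loess none of the 6 genes passed, and Mrpl37 and Mrps30 turned to 0.11 and 0.10. Mrps23, of the small subunit, differed by −0.89 with its brighter probe and by 1.05 with the other.

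The number past the cut-off moved with single arrays. It was 27 without FLT-Sham replicate 8 (26.2% of all probes) and 15 without FLT-Surgery replicate 1 (13.0%), but 2 without FLT-Surgery replicate 3, 1 without FLT-Surgery replicate 5 and 0 without FLT-Sham replicate 4, 6 or 9. The share of all probes past the cut-off moved with it.

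**Figure D3:**
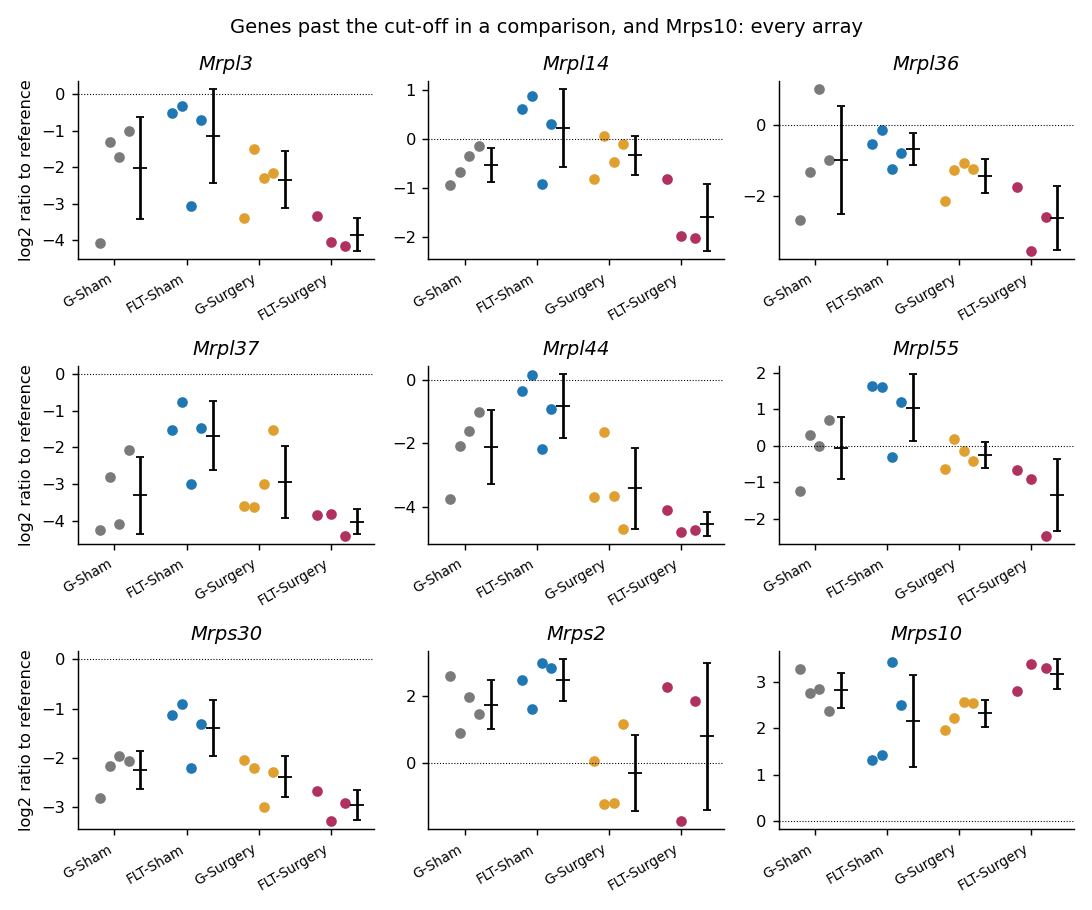
Each panel plots 1 gene, with every array's log2 ratio to the reference as a point by group (x axis) and the group mean with its SD as the black bar beside it. In Mrpl3, Mrpl37 and Mrpl44 the 3 FLT-Surgery arrays lie at or below −3.33, Mrps2 spreads from −1.73 to 2.26 in FLT-Surgery, and Mrps10 has the highest FLT-Surgery mean, 3.16.

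The size of the difference followed the brightness of the probe. Across members the Spearman correlation of the difference with the mean log2 Cy5 signal was −0.53 for flight in Sham and 0.55 for surgery in flight, against −0.26 and 0.26 over all probes, given as descriptions over genes that share arrays. Among the dimmer 36 members tested, the median was 0.87 for flight in Sham and −1.66 for surgery in flight, against 0.29 among the brighter 37 and −0.59 among the brighter 36. The medians had the same sign among the dimmer and the brighter members. The dimmer ones included the 3 (flight in Sham) and 11 (surgery in flight) that passed the filter through FLT-Sham alone. The filter thus favoured larger differences among them. For flight in Surgery the correlation was 0.07, against 0.16 over all probes, and medians were −0.53 among the dimmer and −0.33 among the brighter members.

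**Figure D4:**
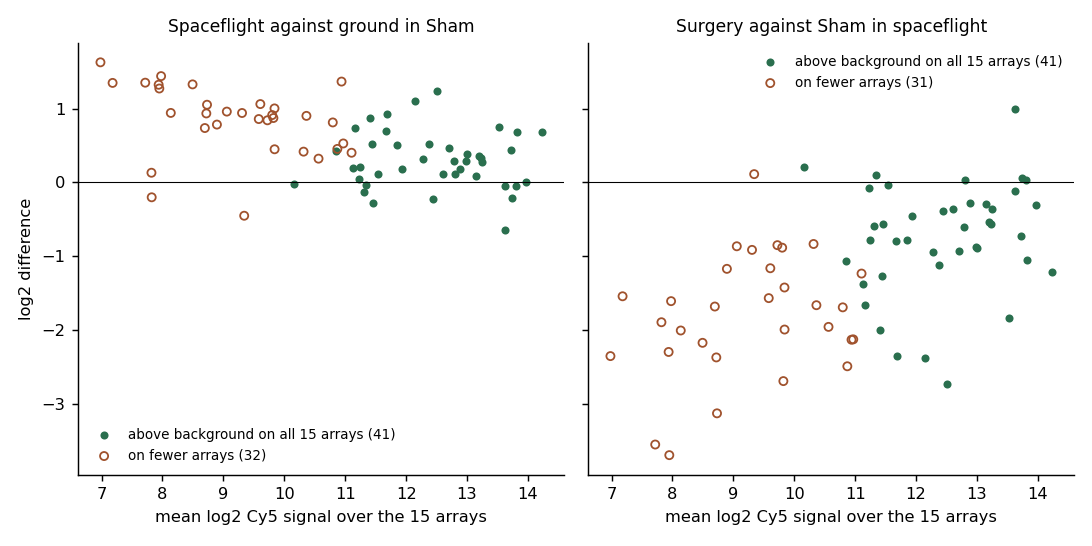
Each point is 1 member, with its mean log2 Cy5 signal over the 15 arrays on the x axis and its log2 difference on the y axis, for flight in Sham (left) and for surgery in flight (right), filled where the gene was above background on all 15 arrays. Open points, the dimmer genes, reach farther from 0 in both panels, up to 1.63 on the left and down to −3.70 on the right.

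Both subunits, taken by gene name, had similar medians. Mrps18a and Mrps30, which lie in the large subunit, and Mrps36 were thus counted as small. The median differences of large and small subunit genes were 0.52 and 0.43 for flight in Sham, −0.40 and −0.43 for flight in Surgery, 0.01 and −0.13 for surgery on the ground and −1.11 and −0.98 for surgery in flight. No test of the subunits was made.

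Whether the spaceflight difference itself depended on surgery was tested with an interaction term over all 15 arrays. The Surgery difference was below the Sham difference for 65 of 73 members, with a median of −1.05 against −0.37 over all 21769 probes, and of −0.23 with a further loess and −0.51 after centring, while normexp and loess turned it to 0.05. The cut-off was passed by 2 members, Mrpl14 and Mrpl37, that is 2 of 73 where 4.97% of all probes passed as lower. At an unadjusted p under 0.05, 14 were lower, against 16.7% of all probes. Mrpl14, of the large subunit, was at 0.62, 0.89, −0.92 and 0.32 in FLT-Sham, −0.94, −0.67, −0.36 and −0.14 in G-Sham, −0.81, −1.98 and −2.03 in FLT-Surgery and −0.83, 0.06, −0.47 and −0.10 in G-Surgery. It was above background on every array. Its flight differences were 0.75 in Sham and −1.28 in Surgery, and the interaction was −2.03 ± 0.62 (adjusted p = 0.172 by limma). For Mrpl37 it was −2.72 ± 0.90 (adjusted p = 0.184), and 0.15 with normexp and loess. Neither Mrpl14 nor Mrpl37 passed with the further loess or centring, and without FLT-Sham replicate 8, 18 members passed, with 17.5% of all probes. Mrpl37 and Mrps35 were above background on 3 arrays each, all of FLT-Sham. They entered this test through that group alone, which favoured a negative value, and the size for Mrpl37 is not a measured one. The brighter probes of Mrpl10, Mrps2 and Mrps23 gave interactions of 0.39, 0.35 and −0.91 and their other probes −0.77, −1.61 and 0.20.

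The other genes of mitochondrial translation, on lists chosen with earlier results known, had mostly the same signs as the members. More translation factors and assembly genes passed the filter in the comparisons with FLT-Sham than in the others, which favoured these signs there. Among 16 translation factors, 12 were tested in Sham and all 12 were higher in flight (median 0.82, 0 past the cut-off), and 6 of 8 were lower in FLT-Surgery than in G-Surgery (median −0.70). In flight 10 of 12 were lower after surgery, and Slirp, an RNA-binding partner of Lrpprc that stabilises mitochondrial messengers, fell by 2.63 on the log2 scale. Of 25 ribosome assembly genes, 17 of 19 were higher in FLT-Sham and 11 of 12 lower in FLT-Surgery (medians 0.75 and −0.68), with Rcc1l past the cut-off in Sham (2.35) and Mterf3 and Mtg2 in Surgery (−2.27 and −1.65). Mterf3, which curbs mitochondrial transcription and helps to assemble the large subunit, had an interaction of −3.95 and Mtg2, a GTPase of large subunit assembly, of −2.04, both past the cut-off. Malsu1, Mpv17l2 and Ybey, 3 further assembly factors, fell in flight after surgery, by 2.31, 2.03 and 2.35. Of 17 mitochondrial aminoacyl-tRNA synthetases, 8 of 11 were higher in FLT-Sham and all 9 tested were lower in FLT-Surgery, where Iars2 passed at −2.39.

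Among genes that copy and transcribe mitochondrial DNA, all 7 tested of 12 were higher in FLT-Sham (median 1.28) and all 7 were lower after surgery in flight (median −1.71). Only 2 were tested for flight in Surgery, 1 higher and 1 lower, and 3 for surgery on the ground. Most of the 7 thus passed the filter only with FLT-Sham arrays, which favoured both directions. Tfam, which packages mitochondrial DNA and starts its transcription, fell by 2.58 (adjusted p = 0.0794 by limma), and Polg, the polymerase that copies it, had a difference of −4.25 past the cut-off and rose by 3.42 in FLT-Sham over G-Sham. Of 10 RNA processing genes 6 of 8 were higher in FLT-Sham, where Pnpt1, the mitochondrial polynucleotide phosphorylase, rose by 2.39. For flight in Surgery 2 of them were higher and 4 lower (median −0.27). Among 9 regulators of mitochondrial biogenesis, 6 of 7 were higher in FLT-Sham, and Ppargc1a, which drives NRF1 and GABP targets, fell by 2.17 in flight after surgery. For flight in Surgery 2 regulators were higher and 3 lower (median −0.36). Yy1 had an interaction of −3.29 past the cut-off, where 4.97% of all probes passed as lower. A link between these regulators and the members was not tested. The 6 other proteins of the mitochondrial ribosome and its membrane insertase that carry different names, such as Dap3 and Oxa1l, had medians of 0.23 in Sham and −0.52 in Surgery, and Chchd1 fell by 3.37 in flight after surgery.

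Nuclear genes of the respiratory chain that this ribosome serves had larger median differences than the ribosome, without a test of the difference. Nuclear genes of complex I had median differences of 0.74 for flight in Sham, −0.79 for flight in Surgery, −0.26 for surgery on the ground and −1.62 for surgery in flight, and those of complexes II to V had 0.64, −0.83, −0.21 and −1.75. In flight after surgery, 9 of 44 complex I genes and 20 of 55 genes of the other complexes fell past the cut-off, where 6.23% of all probes did. Cytosolic ribosomal proteins, whose probes were nearly all tested (82 of 83), had medians of 0.16, −0.21, 0.09 and −0.21 and 1 gene past the cut-off as lower in flight after surgery. In each of the 4 comparisons the median of the mitochondrial ribosome lay between those of the cytosolic ribosome and the respiratory chain, and for flight in Surgery it was nearer to the cytosolic ribosome. The muscle genes had medians of 0.62, −2.18, −0.15 and −3.41, the same signs as the members in all 4 comparisons. Erythroid, neutrophil, adipocyte and B cell genes had these signs as well. Osteoblast, osteoclast, chondrocyte and endothelial genes differed in sign only for surgery on the ground. The part of any of these lists in the values of the members was not tested.

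**Figure D5:**
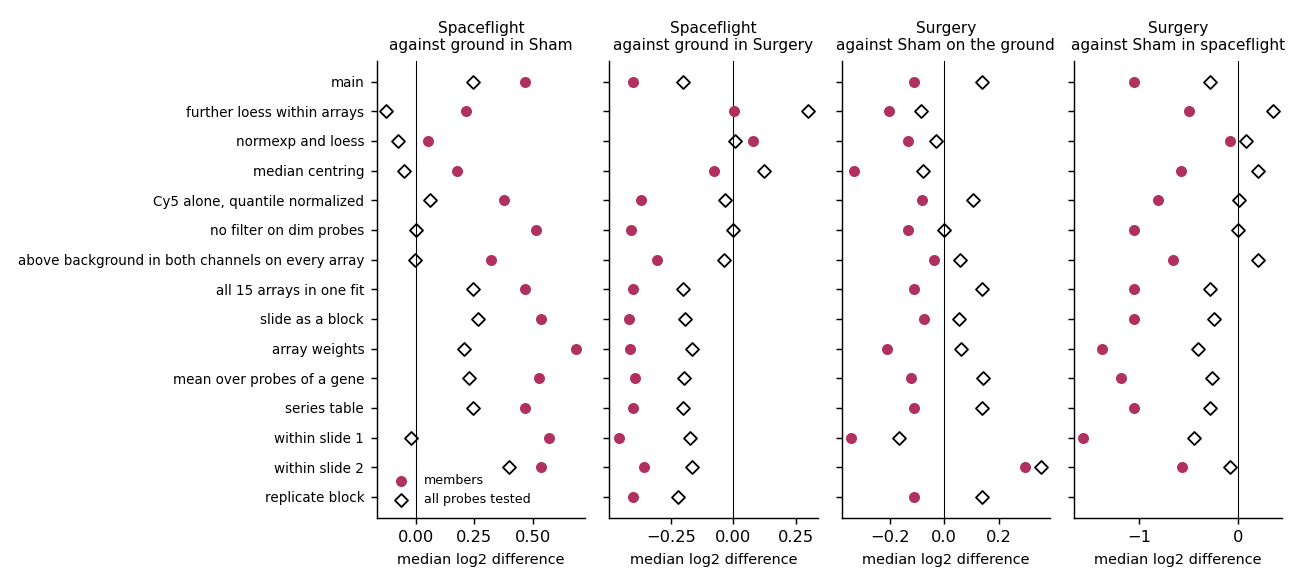
Each row is 1 way of processing the arrays or, for the slides, 1 batch, and each panel 1 comparison; red points are median log2 differences of the members tested and open diamonds those of all probes tested. The members lie above all probes for flight in Sham and below them for surgery in flight in every row, while for flight in Surgery normexp and loess puts them above, at 0.08 against 0.01.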

How the data were processed

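Each of the 15 arrays (8 Sham, 7 Surgery) held 1 mouse's RNA in Cy5 and the Universal Mouse Reference in Cy3. The authors scanned them and used Agilent Feature Extraction 12.0 (per the labels' processing notes), which subtracted background and normalized the dyes. The deposited scanner files give red and green intensity and a log10 ratio of red over green for each spot, and the deposited table of the whole series gives the same log10 ratios in rounded form, used as an alternative. No column of per-sample values was left unused for want of a sample.

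Log10 ratios were turned into log2, control spots and outlier flags left out, and spots of a probe averaged, for 55681 probes. Genes were named through each probe's accession with RefSeq (28026 probes). Probes with a Cy5 signal well above background on 3 or more arrays of a comparison were fitted with limma 3.58.1 in R 4.3.3 (files read with data.table, version 1.17.8) on the groups compared, and on all 15 arrays for the interaction. The cut-off was a fold of at least 2 with an unadjusted p of at most 0.01, and adjusted p is Benjamini-Hochberg over all probes tested. The p-values measure the spread between the sampled mice, whose number limits the precision. Tested on simulated data, with 200 probes changed by 2 on the log2 scale, 64%, 75%, 79%, 56.5% and 40.5% were called in the comparisons in the order of the report's text for flight in Sham, flight in Surgery, surgery on the ground, surgery in flight and the interaction.

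Genes were named if they passed the cut-off, separated the groups by the largest differences, had a known role in the ribosome, or had probes that disagreed by over 1 on the log2 scale with opposite signs. Members, lists and rules were chosen with earlier results of these data known. The alternatives were a further loess, normexp and loess, centring, Cy5 alone, the filter on dim probes, a single fit over all arrays, slide and replicate blocks, array weights, the mean over probes, the values deposited for the whole series and leaving out each array. Normexp (offset 50) ran on median signals, because the scanner files used here hold no mean signal column.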

Additional observations from a re-analysis of the deposited data

Results flagged for a closer look

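In groups of 4 arrays, 7 of 84 sets of values had 1 array far from the other 3, and chance gives about 1 in 20 groups. FLT-Sham replicate 8 stood apart for 4 members. It was at −3.06 for Mrpl3 (others −0.71 to −0.31), −1.25 for Mrpl41 (0.05 to 0.32), −0.31 for Mrpl45 (0.65 to 0.80) and −5.05 for Mrps35 (−2.40 to −1.91). G-Sham replicate 1 stood apart for 3, at −1.80 for Mrps18a (others −0.60 to −0.41), −0.98 for Mrps18b (−0.34 to −0.26) and 0.36 for Mrps23 (0.93 to 0.95). These 2 arrays also had the lowest summed muscle, erythroid, neutrophil and adipocyte signals of their groups, whose part was not tested. The interaction of spaceflight and surgery passed the unadjusted cut-off for Mrpl14 (−2.03 on the log2 scale, adjusted p = 0.172 by limma) and Mrpl37 (−2.72, adjusted p = 0.184), that is 2 of 73 members where 4.97% of all probes passed as lower. Neither passed with the further loess or centring, and Mrpl37 turned to 0.15 with normexp and loess. Mrpl37 was above background on FLT-Sham arrays only and entered the test through that group alone, which favoured a negative value.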

How the results depend on the processing

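Array number and dim probes limit these results, since 37 of 78 members were below background on at least 1 array. The paper also names RNA quality as a limit, which a freeze and thaw may have lowered further. Values are log2 differences, and the cause of a change was not tested. The members past the cut-off in Sham were 14 with array weights (19.5% of all probes, the share in brackets throughout). In Surgery they were 1 with the further loess (7.39%) and with centring (4.6%). They were 2 with Cy5 alone (3.38%) and with both channels above background on every array (4.38%), 5 with the slide block (7.80%) and 6 with array weights (10.3%). On the ground the count was 0 with the further loess, normexp, Cy5 alone, no filter, both channels, all 15 arrays in one fit, the slide block and the mean over probes (1.01% to 3.36%). For surgery in flight it was 2 with the further loess (6.23%), 0 with normexp (1.55%) and 17 with all 15 arrays in one fit (13.5%). It was 1 with the slide block (2.88%) and 43 with array weights (44.4%). For the interaction it was 0 with the further loess and with centring, 5 with no filter (2.92%), 6 with both channels (7.07%), 1 with the slide block (3.69%) and 27 with array weights (26.2%).

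The median in Surgery turned to 0.002 with the further loess and 0.08 with normexp, and on the ground to 0.30 within slide 2. For surgery in flight it was −0.50 with the further loess, −0.078 with normexp, −0.57 with centring, −1.57 within slide 1 and −0.57 within slide 2. For the interaction it was −0.23, 0.054 and −0.51 with the same 3 scalings and −0.50 with both channels. Normexp turned Mrpl37 and Mrps30 in flight to 0.11 and 0.10, and the interaction of Mrpl37 and Mrps2 to 0.15 and −0.06. The Mrps2 interaction was −0.24 with array weights and −0.63 with the mean over probes, which also gave −0.19 for that of Mrpl10 and 0.08 for Mrps23 in flight.

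Leaving out 1 array at a time, the counts ranged from 0 to 8 in Sham, 0 to 10 in Surgery, 0 to 3 on the ground, 0 to 27 in flight and 0 to 18 for the interaction. The highest of these counts came with 10.6%, 12.8%, 4.26%, 26.2% and 17.5% of all probes past the cut-off. The medians ranged from 0.27 to 0.71, −0.46 to −0.26, −0.26 to 0.046, −1.26 to −0.78 and −1.30 to −0.82, and the Mrps2 interaction from −0.38 to 1.62. With a replicate block the count was 0 and the median −0.40 in Surgery, and 1 and −0.11 on the ground. The numbers did not pair the animals, since same-numbered deviations correlated at −0.29 to 0.20 and −0.14 to 0.28, and the other comparisons share fewer than 2 numbers.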
